A study of Homo sapiens with 15 samples.

Results

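The peaks described here carry active histone marks at 9 neighbouring genes of chromosome band 8p23: MCPH1, ANGPT2, AGPAT5, PRAG1, CLDN23, MFHAS1, ERI1, PPP1R3B and TNKS. They are the consensus peaks of H3K4me3 and H3K27ac on chromosome 8 between 6.2 and 10.0 Mb (hg19) whose nearest protein-coding gene start belongs to 1 of these genes. The rule took in 75 of 84767 peaks, 13 of 22572 for H3K4me3 and 62 of 62195 for H3K27ac. The genes were chosen by their low H3K4me3 and H3K27ac levels in the BrM2 libraries relative to Par, so values of BrM2 are given as a description and were not tested. The interval holds 61 protein-coding gene starts, and the other 20 of its 95 peaks lay nearest to genes outside the list.

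MDA-MB-231 is a triple-negative, claudin-low human breast cancer cell line, used here as the parental line (Par). LM2 and BrM2 are sub-populations of it, selected in mice for the capacity to colonize the lung and the brain, respectively. Cells of the 3 lines were cultured in medium with 10% serum for 3 days and fixed with 1% formaldehyde for 10 min, per the labels. Each line had 2 replicates per mark, which makes 6 libraries per mark and 12 in all. The groups differ by line alone, and a sub-population stands for the outcome of its own selection.

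H3K4me3 is deposited at the starts of active genes, and H3K27ac marks both active promoters and active enhancers. Gain or loss of these marks is widely used to follow the activity of a gene and its surrounding elements between related cell lines. The short arm of chromosome 8 is known as a frequent site of DNA loss in epithelial cancers. ChIP-seq counts depend on the number of DNA copies as well as on the mark carried per copy, and the 2 cannot be told apart here, since the input samples were not analysed.

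Counts in peaks ranged from 3489607 to 9839629 per H3K4me3 library and from 1994996, in BrM2 replicate 2, to 6450028 per H3K27ac library. Levels are given for each library as counts per 1000000 counts in all peaks of that library (CPM), replicate 1 before replicate 2, and each log2 fold change has its standard error (SE) from the DESeq2 fit. A promoter peak of H3K4me3 was in the set for all 6 mesenchymal markers examined, with a summed level of 768 to 1005 CPM per library, but that of MSN held only 0 to 2.11 CPM. For 4 of 6 luminal markers there was one, with 115 to 222 CPM, and ESR1 and ERBB3 had none. For H3K27ac, 5 of 6 mesenchymal and 3 of 6 luminal markers had a promoter peak, with sums of 515 to 737 and 66.0 to 110 CPM.

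The 9 genes were first compared between BrM2 and Par as a group. Both BrM2 libraries lay below both Par libraries at 12 of 13 H3K4me3 peaks and at 52 of 62 H3K27ac peaks. Over all peaks of the series this held for 14.1% and 25.6%, but the contrast itself chose the genes, so nothing is read from that difference. Summed over all their peaks, the 9 genes held 633 and 630 CPM of H3K4me3 in Par, 731 and 695 CPM in LM2, and 193 and 205 CPM in BrM2. For H3K27ac the sums were 985 and 927 CPM in Par, 995 and 921 CPM in LM2, and 273 and 247 CPM in BrM2. BrM2 was thus 3.17-fold lower than Par for H3K4me3 and 3.68-fold lower for H3K27ac. LM2 lay above Par in H3K4me3 and overlapped it in H3K27ac. The median log2 fold change of the peaks from DESeq2 was -1.44 for H3K4me3 and -1.70 for H3K27ac, against -0.02 for all peaks of either mark. Single libraries moved these medians, to -2.29 for H3K4me3 without BrM2 replicate 2 and to -2.36 for H3K27ac without BrM2 replicate 1. Low counts entered these medians, and 10 H3K4me3 and 39 H3K27ac peaks averaged 10 or more normalized counts over the libraries. The medians of those peaks were -1.59 and -2.09.

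For H3K4me3 the size of the difference fell into 2 levels, a division of the genes made after the values were seen and then applied to both marks. At PRAG1, CLDN23 and MFHAS1, which are adjacent, BrM2 held 14.7% of the Par H3K4me3 signal and 13.5% of the Par H3K27ac signal. At the other 6 genes, which lie on both sides, BrM2 held 48.7% and 45.4%. In LM2 the same sums were 112% and 93.0% of Par for the 3 inner genes and 114% and 110% for the 6 outer genes. The plot of promoter levels by library shows the 2 levels for H3K4me3. For H3K27ac the promoters formed no such levels, since BrM2 was lower by 5.47-fold at CLDN23 and 5.40-fold at MFHAS1 but also by 4.39-fold at the outer gene PPP1R3B, and the other outer promoters ranged from 3.11-fold at MCPH1 to 1.63-fold at TNKS.

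**Figure D1:**
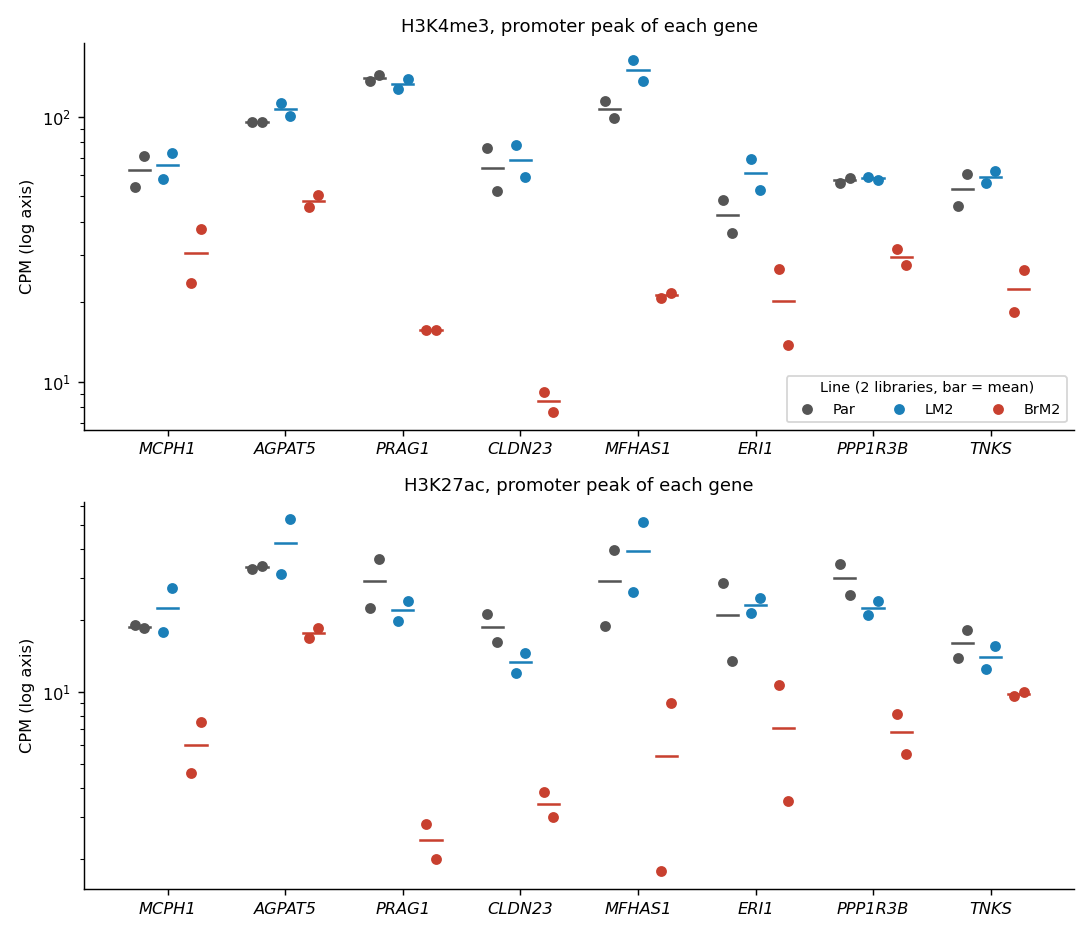
Level of H3K4me3 (upper panel) and H3K27ac (lower panel) at the promoter peak of 8 genes, in CPM on a log axis. Points are the 2 libraries of each line and bars their mean. At every promoter shown both BrM2 libraries lie below all 4 other libraries, with the widest gaps at PRAG1, CLDN23 and MFHAS1 for H3K4me3.

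The 3 inner genes encode proteins of signalling and adhesion. PRAG1 encodes a pseudokinase scaffold related to PEAK1, and its promoter peak lies at chr8:8240744-8245179. Its H3K4me3 was 136 and 143 CPM in Par, 127 and 139 CPM in LM2, and 15.7 CPM in each BrM2 library. The BrM2 libraries were nearly identical there and lay far below the other 4, with a log2 fold change against Par of -3.22 ± 0.33. H3K27ac at the PRAG1 promoter was 22.6 and 36.0 CPM in Par, 19.8 and 24.2 CPM in LM2, and 2.80 and 2.01 CPM in BrM2. The last 2 values rest on 11 and 4 counts, and the log2 fold change was -3.55 ± 0.54.

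CLDN23 encodes a member of the claudin family, the proteins that seal tight junctions between epithelial cells. Its promoter H3K4me3 (chr8:8558434-8560525) was 75.9 and 52.4 CPM in Par, 78.0 and 58.9 CPM in LM2, and 9.17 and 7.68 CPM in BrM2. Par and LM2 overlapped, and BrM2 was 7.62-fold lower than Par. H3K27ac at this promoter was 21.2 and 16.2 CPM in Par, 12.1 and 14.6 CPM in LM2, and 3.82 and 3.01 CPM in BrM2. Here LM2 also lay below Par in both libraries, but by a log2 fold change of only -0.56 ± 0.42, which did not pass the DESeq2 test (adjusted p = 0.712).

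MFHAS1 encodes a protein with leucine-rich repeats, named for its amplification in malignant fibrous histiocytoma. At its promoter (chr8:8749389-8751754) H3K4me3 was 115 and 98.3 CPM in Par, 163 and 137 CPM in LM2, and 20.7 and 21.6 CPM in BrM2. The 3 lines did not overlap, with LM2 highest and BrM2 5.04-fold lower than Par. Per kb of peak this promoter had the highest H3K4me3 level of the 8 in Par, with 45.1 CPM per kb against 36.9 at AGPAT5, the next, and 18.1 at PPP1R3B, the lowest. H3K27ac was 18.9 and 39.4 CPM in Par, 26.2 and 51.9 CPM in LM2, and 1.78 and 9.02 CPM in BrM2. The replicates of each line differed widely in this mark, in the same direction in all 3 lines, and the standard error of the log2 fold change (-2.47 ± 0.99) was the largest among the promoters.

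Of the outer genes, MCPH1 and TNKS act in the upkeep of chromosomes. MCPH1 encodes microcephalin, a factor of chromosome condensation and the DNA damage response, and TNKS encodes tankyrase, an enzyme that attaches poly(ADP-ribose) to telomere and signalling proteins. H3K4me3 at the MCPH1 promoter (chr8:6263129-6265352) was 54.4 and 71.0 CPM in Par, 58.3 and 73.1 CPM in LM2, and 23.6 and 37.5 CPM in BrM2. At the TNKS promoter (chr8:9412333-9414791) it was 45.9 and 60.6 CPM in Par, 56.2 and 62.2 CPM in LM2, and 18.3 and 26.4 CPM in BrM2. Both genes thus had overlapping Par and LM2 libraries and lower BrM2 libraries, with log2 fold changes against Par of -1.11 ± 0.33 and -1.32 ± 0.34. In H3K27ac these genes differed more from each other. The level at the MCPH1 promoter was 19.2 and 18.5 CPM in Par, 17.8 and 27.4 CPM in LM2, and 4.59 and 7.52 CPM in BrM2, a log2 fold change of -1.69 ± 0.47. At the TNKS promoter it was 13.9 and 18.3 CPM in Par, 12.6 and 15.7 CPM in LM2, and 9.69 and 10.0 CPM in BrM2, a log2 fold change of -0.71 ± 0.44.

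ERI1 encodes an exoribonuclease that trims the ends of histone mRNA and small RNAs. Its promoter H3K4me3 (chr8:8860097-8861841) was 48.4 and 36.5 CPM in Par, 69.3 and 52.6 CPM in LM2, and 26.6 and 13.8 CPM in BrM2. The lines did not overlap, and the BrM2 replicates differed by more than at most other promoters. H3K27ac there was 28.7 and 13.6 CPM in Par, 21.6 and 24.7 CPM in LM2, and 10.7 and 3.51 CPM in BrM2. The lower Par library was close to the higher BrM2 library, and the log2 fold change was -1.49 ± 0.50.

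AGPAT5 and PPP1R3B act in lipid and glycogen metabolism. AGPAT5 encodes an acyltransferase of phosphatidic acid synthesis, and its promoter (chr8:6564929-6567512) held 95.1 and 95.5 CPM of H3K4me3 in Par, 112 and 100 CPM in LM2, and 45.6 and 50.8 CPM in BrM2. PPP1R3B encodes a subunit that directs protein phosphatase 1 to glycogen, and its promoter (chr8:9006353-9009536) held 56.2 and 58.8 CPM in Par, 59.2 and 57.8 CPM in LM2, and 31.6 and 27.5 CPM in BrM2. In both genes the replicates agreed closely and BrM2 was near 2-fold lower than Par, by 1.98-fold at AGPAT5 and 1.94-fold at PPP1R3B. H3K27ac at the AGPAT5 promoter was 32.8 and 33.9 CPM in Par, 31.3 and 52.9 CPM in LM2, and 16.8 and 18.5 CPM in BrM2. At the PPP1R3B promoter it was 34.4 and 25.6 CPM in Par, 21.1 and 24.2 CPM in LM2, and 8.16 and 5.51 CPM in BrM2. The log2 fold change of H3K27ac in BrM2 was -0.92 ± 0.37 at AGPAT5 and -2.09 ± 0.42 at PPP1R3B, although their H3K4me3 differences were alike.

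ANGPT2 encodes a secreted ligand of the endothelial receptor TEK. No peak of either mark lay within 2 kb of its start, so it has no promoter value. The gene sits within MCPH1, and its 6 H3K27ac peaks all lay in introns of MCPH1. Their summed H3K27ac was 81.0 and 89.0 CPM in Par, 106 and 98.9 CPM in LM2, and 46.4 and 51.6 CPM in BrM2, which is 1.73-fold lower than Par. The nearest of these peaks, 2338 bp from the gene start (chr8:6412499-6418592), had a log2 fold change of -0.66 ± 0.33. Its single H3K4me3 peak was small, with 0 and 13 counts in Par, 5 and 29 counts in LM2, and 2 and 14 counts in BrM2, and was the only H3K4me3 peak of the 9 genes where BrM2 and Par overlapped. The sign of its BrM2 to Par ratio changed when 1 library was left out.

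All peaks of each gene were then summed. BrM2 lay below Par without overlap in 8 of 9 genes for H3K4me3 and in 9 of 9 for H3K27ac, against 15.8% and 26.1% of all genes whose peaks averaged 10 or more summed counts. The exception was ANGPT2 for H3K4me3. BrM2 held 11.3% of the Par H3K4me3 at PRAG1, 13.1% at CLDN23 and 20.1% at MFHAS1. It held between 42.0%, at TNKS, and 51.4%, at PPP1R3B, at the 5 outer genes other than ANGPT2. For H3K27ac the inner genes held 12.5%, 12.9% and 24.2% in the same order. The outer genes ranged more widely in this mark, from 32.1% at MCPH1 and 32.6% at PPP1R3B through 44.8% at ERI1, 49.3% at AGPAT5 and 57.7% at ANGPT2 to 67.5% at TNKS. The spread of the replicate numbers bears on this order. For H3K4me3 the log2 ratios of replicates 1 and 2 overlapped between all neighbours among these 5 outer genes, such as TNKS (-1.32 and -1.20) and ERI1 (-0.86 and -1.41). In H3K27ac, MCPH1 (-2.06 and -1.30) overlapped with PPP1R3B (-1.62 and -1.61) and reached the range of MFHAS1 (-2.00 and -2.07), while TNKS (-0.50 and -0.64) lay apart from ANGPT2 (-0.80 and -0.79).

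**Figure D2:**
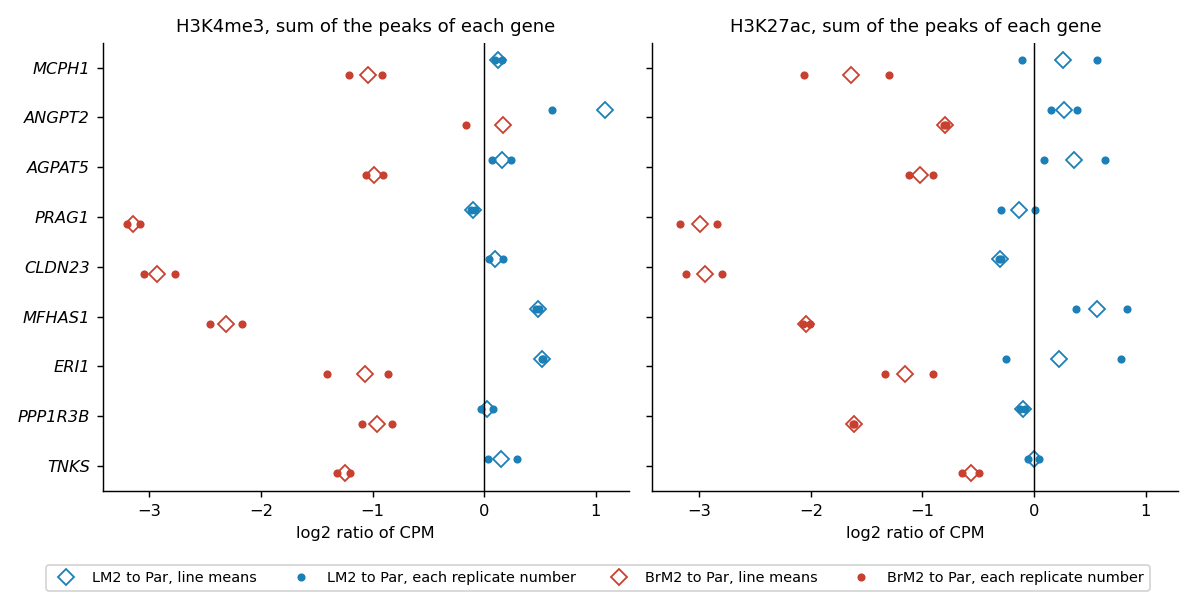
log2 ratio of the summed CPM of each gene's peaks, LM2 to Par (blue) and BrM2 to Par (red), for H3K4me3 (left) and H3K27ac (right), with genes in chromosomal order. Diamonds are ratios of line means and small points the ratios of replicates 1 and 2, except for ANGPT2 H3K4me3, where Par replicate 1 had 0 counts. PRAG1, CLDN23 and MFHAS1 lie lowest in BrM2 in both marks.

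Most H3K27ac peaks of these genes lay away from promoters. Of the 62, 8 lay within 2 kb of a gene start, 27 were intergenic, 24 intronic and 3 in other exons or UTRs. PRAG1 had 16 of them, which cover 54638 bp in all, and CLDN23 had 11. Of the H3K27ac counts of the 9 genes, PRAG1 carried 38.3% in Par, 34.8% in LM2 and 17.7% in BrM2. Among distal peaks averaging 20 or more normalized counts, the median log2 fold change in BrM2 was -3.01 over 12 peaks of the inner genes and -1.11 over 10 peaks of the outer genes. The promoter medians of the same groups were -2.47 and -1.49, so the median of the inner genes was the lower one at promoters and at distal peaks alike. The marks also overlapped in position: 13 of the 62 H3K27ac peaks shared at least 1 bp with an H3K4me3 peak of the genes, and 49 shared none.

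The 3 distal H3K27ac peaks with the highest CPM in Par, summed over the peak and not per length, are given in full. An intergenic domain of 15926 bp (chr8:8141252-8157177), 86772 bp from the PRAG1 start, held 151 and 148 CPM in Par, 122 and 115 CPM in LM2, and 20.39 and 16.04 CPM in BrM2. A second intergenic peak near PRAG1 (chr8:8166167-8175106) held 53.6 and 51.4 CPM in Par, 52.4 and 38.6 CPM in LM2, and 8.41 and 6.52 CPM in BrM2. The third, in an intron of ERI1 but nearest to the PPP1R3B start (chr8:8930343-8941777), held 78.5 and 66.0 CPM in Par, 88.8 and 56.1 CPM in LM2, and 27.5 and 26.1 CPM in BrM2. The 2 peaks near PRAG1 had log2 fold changes in BrM2 of -3.01 ± 0.29 and -2.78 ± 0.38, close to the inner distal median of -3.01. The peak near PPP1R3B had one of -1.43 ± 0.32, below the outer distal median of -1.11. It lay within the range of those outer peaks, -1.52 to -0.35. The large domain near PRAG1 was also lower in both LM2 libraries than in Par, by a log2 fold change of -0.39 ± 0.26 that did not pass the DESeq2 test (adjusted p = 0.607).

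**Figure D3:**
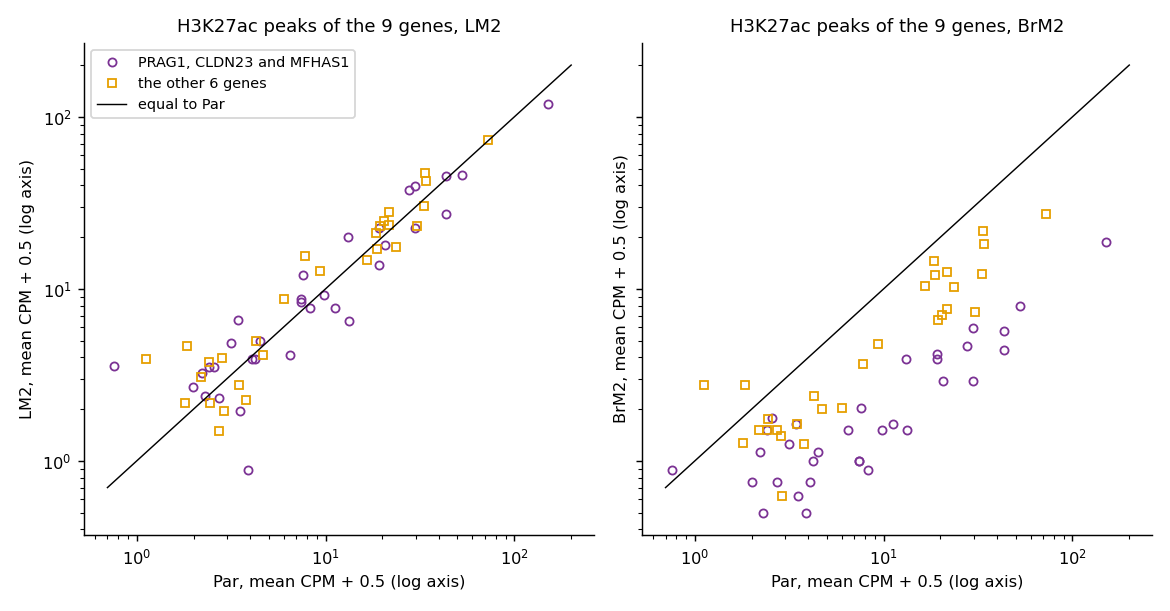
Mean H3K27ac level of each of the 62 peaks of the 9 genes in Par (x axis) against LM2 (left) and BrM2 (right), in CPM with 0.5 added, on log axes. Peaks of PRAG1, CLDN23 and MFHAS1 (circles) and of the other 6 genes (squares) lie around the line of equality in LM2, and in BrM2 most lie below it, the circles farther than the squares.

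The exceptions were weak peaks. Of the 10 H3K27ac peaks where BrM2 did not lie wholly below Par, 9 had a mean normalized count between 4.57 and 12.8. Among these were a peak 58901 bp from the AGPAT5 start (chr8:6625064-6625580), with 2 and 3 counts in Par, 27 and 10 counts in LM2, and 10 and 4 counts in BrM2, and an intronic ANGPT2 peak (chr8:6385374-6386149), with 6 and 5 counts in Par, 28 and 15 counts in LM2, and 8 and 5 counts in BrM2. In both, the BrM2 CPM lay above Par. The other exception was the last peak of the genes towards the centromere, 246909 bp from the TNKS start (chr8:9660331-9662732), with 21.4 and 14.6 CPM in Par, 20.6 and 20.7 CPM in LM2, and 15.5 and 12.5 CPM in BrM2. Its log2 fold change of -0.35 ± 0.40 was the smallest among the H3K27ac peaks of the genes that averaged 20 or more normalized counts.

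LM2 was then compared with Par. The Par libraries had entered the choice of the genes, and the BrM2 libraries entered the spread and size factors of the fit. No fit left out both BrM2 libraries, so their part in the result was not removed. DESeq2 called 0 of the 12 tested H3K4me3 peaks of the 9 genes and 0 of the 44 tested H3K27ac peaks at an adjusted p under 0.05, against 2.51% and 3.63% of all tested peaks. At an unadjusted p under 0.05 there were 1 and 6, against 8.11% and 10.9% of all peaks, and edgeR called 0 of 13 and 3 of 62, against 1.61% and 5.14% of all peaks. The 3 were weak distal peaks with mean normalized counts of 7.87 near AGPAT5 and 4.57 near MFHAS1, both higher in LM2, and 4.79 near CLDN23, lower in LM2. At the 8 promoters the log2 fold change of H3K4me3 ranged from -0.04 ± 0.31 at PRAG1 to 0.56 ± 0.45 at ERI1. That of H3K27ac ranged from -0.56 ± 0.42 at CLDN23 to 0.36 ± 0.96 at MFHAS1. With standard errors of this size a small change could go uncalled. With the replicate number as a block, DESeq2 called the H3K4me3 promoter peaks of MFHAS1 (log2 fold change 0.52, adjusted p = 0.00187) and ERI1 (0.55, adjusted p = 0.0336) as higher in LM2, where 14.4% of all tested peaks were called. The block called 0 H3K27ac peaks of the genes, against 5.44% of all. In edgeR the block called 4 of 13 H3K4me3 and 7 of 62 H3K27ac peaks, where 26.2% and 13.2% of all peaks were called. Of the 7, 3 were lower in LM2 and 4 higher. Not all were weak: a distal CLDN23 peak (chr8:8482246-8489427) held 41.7 and 44.4 CPM in Par, and 25.6 and 27.9 CPM in LM2. Its log2 fold change in that fit was -0.75 (edgeR adjusted p = 0.0147). The summed levels were higher in LM2 without overlap for 3 of 9 genes in each mark, against 19.5% of all genes in H3K4me3 and 21.8% in H3K27ac. They were lower for 0 genes in H3K4me3 and for 1, CLDN23, in H3K27ac, against 12.9% and 20.8%.

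BrM2 was also set beside LM2, again without a test. BrM2 lay below LM2 without overlap at 12 of 13 H3K4me3 and 57 of 62 H3K27ac peaks, against 17.5% and 27.2% of all peaks. The median log2 fold change was -1.69 and -2.09. In summed CPM the inner genes were 7.62-fold lower than LM2 for H3K4me3 and 6.87-fold lower for H3K27ac, and the outer genes 2.34-fold and 2.42-fold lower. The BrM2 libraries are common to this comparison and to that with Par, so the values of both are not independent.

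The edges of the lowered stretch were followed along the chromosome with the peaks that averaged 20 or more normalized counts. The deeper level spanned chr8:8080244-8751777, from the first peak near LRLE1, outside the list, to the MFHAS1 promoter. All 4 H3K4me3 peaks of it had log2 fold changes in BrM2 between -3.22 and -2.29, and all 21 H3K27ac peaks between -4.09 and -1.82. In LM2 the same H3K27ac peaks ranged from -1.17 to 0.66. Towards the centromere the step lay between the promoters of MFHAS1 and ERI1, where the H3K27ac log2 fold change went from -2.47 to -1.49 and that of H3K4me3 from -2.42 to -1.13 across a gap of 108342 bp between H3K4me3 peaks. Towards the telomere the step lay within a gap of 1512807 bp between the H3K27ac peaks of the AGPAT5 promoter (-0.92) and of LRLE1 (-2.24). For H3K4me3 the gap was 871607 bp, between a peak near USP17L4 (-0.31), in a cluster of near-identical genes, and LRLE1 (-2.29).

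The shallower level did not end with the 9 genes. Median log2 fold changes in BrM2 were -0.95 for H3K4me3 and -0.97 for H3K27ac from the chromosome end to 6.2 Mb, over 10 and 21 peaks. They were -1.06 and -1.11 from 6.2 to 8.0 Mb, over 3 and 8 peaks, and -1.07 and -1.03 from 8.8 to 10.0 Mb, over 4 and 9 peaks. From 10.0 to 16 Mb they were -0.97 and -1.10, over 19 and 41 peaks. From there to 45 Mb they were 0.00 and 0.03, over 154 and 411 peaks. The 6 outer genes thus lay near the level of the wider arm beside them. Of the peaks below 16 Mb outside the deeper stretch, 0 of 36 H3K4me3 peaks were as low as its highest peak. For H3K27ac 9 of 79 were, among them ZNF596 (-3.12), FBXO25 (-2.76), 3 peaks near C8orf74 (-2.30 to -1.92) and the PPP1R3B promoter (-2.09), so single peaks as low were not limited to PRAG1, CLDN23, MFHAS1 and LRLE1. In LM2 the medians of these 6 stretches lay between 0.10 and 0.35 for H3K4me3 and between -0.33 and 0.24 for H3K27ac.

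**Figure D4:**
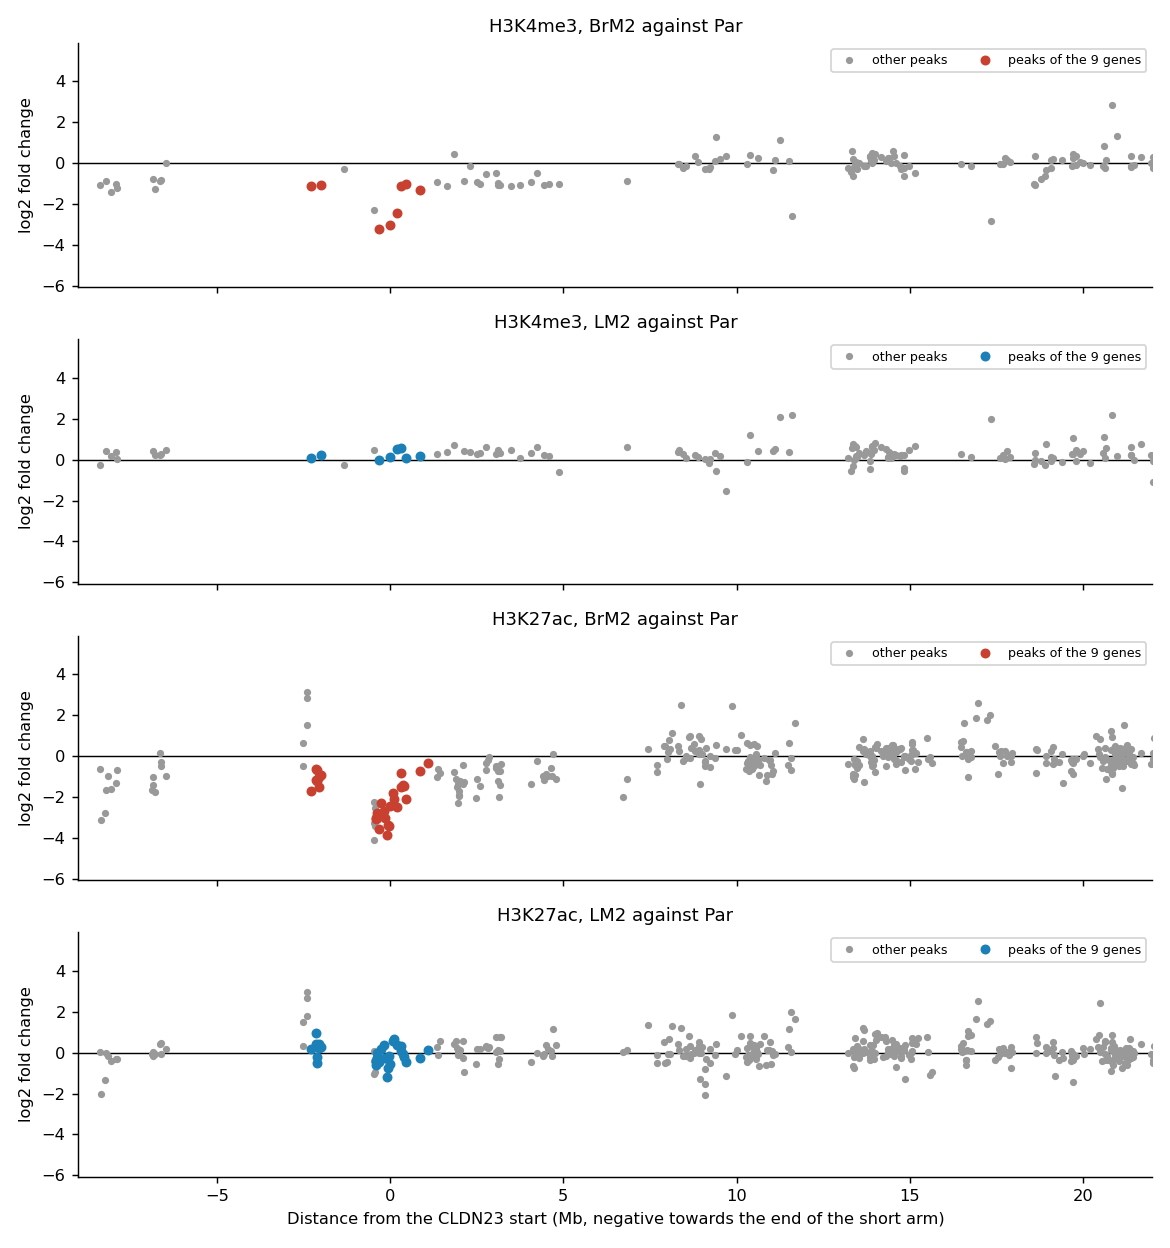
log2 fold change of each peak averaging 20 or more normalized counts along the short arm of chromosome 8, against its distance in Mb from the CLDN23 start, for BrM2 and LM2 against Par in each mark. Peaks of the 9 genes are coloured. In BrM2 the peaks on the left of the plot lie mostly near -1 and deeper around CLDN23, and those on the right lie around 0. In LM2 both sides lie around 0 for H3K27ac and slightly above 0 for H3K4me3, where the median from 16 to 45 Mb was 0.23.

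By the edge rule, under which the stretch ends before 3 successive peaks above -0.5, the H3K4me3 stretch reached from the first peak of the chromosome to a peak near TUSC3 (chr8:15397288-15398690, -0.89 ± 0.43). The next H3K4me3 peaks outward, starting at FGF20 (chr8:16858095-16860086), had a value of -0.02 and above -0.5. For H3K27ac the same rule ended the stretch earlier on both sides. On the left it ended at the MCPH1 promoter, since 3 peaks just outside 6.2 Mb (chr8:6153337-6171827) were higher in BrM2, with log2 fold changes of 3.15, 2.86 and 1.52. These 3 peaks were higher in LM2 as well, with 2.94, 2.69 and 1.78. On the right it ended near FAM167A (chr8:11323451-11325032, -0.67 ± 0.49), beyond which 3 peaks near FAM167A and BLK lay between -0.34 and -0.04. The peaks next to the bounds of the interval were a weak H3K4me3 peak upstream of MCPH1 (chr8:6218616-6219125) and an H3K27ac peak near MSRA just beyond 10.0 Mb (chr8:10007425-10012257, -0.85). The weak peak upstream of MCPH1 had 1 and 3 counts in Par, 12 and 34 counts in LM2, and 0 and 2 counts in BrM2. Its log2 fold change in BrM2 against Par was -1.44 ± 1.63.

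Of the 20 other peaks of the interval, 16 were lower in BrM2 without overlap. Over all peaks this held for 14.1% in H3K4me3 and 25.6% in H3K27ac. The interval was set around genes chosen for low BrM2 levels, so nothing is read from that difference. The 11 H3K27ac peaks nearest LRLE1, which lie beside PRAG1, were all lower in BrM2 without overlap, with a median of -3.26. Some of them were nearly empty, such as chr8:8104540-8104749, with 1 and 17 counts in Par and 0 in both BrM2 libraries. The MSRA promoter, next to TNKS towards the centromere, had H3K4me3 of 98.6 and 81.2 CPM in Par, 119 and 95.8 CPM in LM2, and 51.3 and 48.7 CPM in BrM2. MSRA encodes a reductase of oxidized methionine. A peak near USP17L4, in a cluster of near-identical genes where reads are hard to place, overlapped Par, with an H3K4me3 log2 fold change of -0.31 ± 0.51. Weak H3K27ac peaks near DEFB108C (0.26 ± 0.76) and in an intron of MSRA (0.95 ± 1.32) also overlapped, as did a weak H3K4me3 peak near XKR5 (-1.49 ± 1.24). A weak H3K4me3 peak near USP17L8 had 6 and 1 counts in Par and 0 in both BrM2 libraries. Its log2 fold change of -5.03 ± 2.03 rests on these few counts, so its depth is not known.

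Relatives and partners of the 9 genes elsewhere in the genome were examined next, with a list of 30 genes that holds the angiopoietin, tankyrase, microcephaly, acyltransferase, phosphatase subunit, claudin, PEAK1 and ERI families. A promoter peak was present for 25 of them in H3K4me3 and 26 in H3K27ac. In BrM2 against Par, 1 passed the DESeq2 test in H3K4me3 and 0 in H3K27ac, against 3.61% and 5.29% of all tested peaks. At an unadjusted p under 0.05 there were 2 and 5, against 10.5% and 13.7% of all peaks, and edgeR called 1 in each mark, CLDN7 in H3K4me3 and PPP1R3F, lower, in H3K27ac, against 3.07% and 6.88% of all peaks. The DESeq2 call was CLDN7, a claudin of epithelial junctions, which rose. Its promoter H3K4me3 (chr17:7164107-7167191) was 27.2 and 33.1 CPM in Par, 21.3 and 28.2 CPM in LM2, and 77.9 and 73.9 CPM in BrM2, a log2 fold change of 1.28 ± 0.34 (adjusted p = 0.00754). CLDN7 and CLDN23 thus differed from Par in opposite directions in BrM2. The medians over the list in BrM2 against Par were -0.22 for H3K4me3 and -0.20 for H3K27ac, against -0.02 over all peaks. All peaks include distal ones, while the list holds promoter peaks only. For LM2 against Par the medians over the list were -0.10 and -0.22. In LM2 against Par, DESeq2 and edgeR each called 0 promoters of the list in either mark. Of all tested peaks DESeq2 called 2.51% and 3.63%, and edgeR 1.61% and 5.14%. At an unadjusted p under 0.05 DESeq2 gave 0 of 25 and 4 of 26, against 8.11% and 10.9% of all peaks. With the replicate block DESeq2 called 5 of 25 in H3K4me3, AXIN2, CENPJ and PEAK1 higher and STIL and AGPAT1 lower. It called 0 of 26 in H3K27ac, where the block called 14.4% and 5.44% of all tested peaks in the 2 marks. The block in edgeR called 9 of 25 and 4 of 26, against 26.2% and 13.2% of all peaks.

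The paralogs gave mixed values. TNKS2, the paralog of TNKS, had promoter H3K4me3 of 176 and 127 CPM in Par and 151 and 123 CPM in BrM2. The lines overlap, although each BrM2 library lay below the Par library of the same number. PEAK1, the paralog of PRAG1, had 154 and 128 CPM in Par, 183 and 166 CPM in LM2, and 117 and 109 CPM in BrM2, a log2 fold change of -0.40 ± 0.35 in BrM2 (DESeq2 adjusted p = 0.899). With the replicate block, DESeq2 called 6 of the 25 H3K4me3 promoters in BrM2 against Par, 5 lower (CDK5RAP2, AGPAT2, AGPAT3, PPP1R3F and PEAK1) and CLDN7 higher, and 2 of the 26 H3K27ac promoters, CDK5RAP2 and PPP1R3F, both lower. The block called 17.7% and 8.13% of all tested peaks in DESeq2. In edgeR the block called 12 of 25 H3K4me3 promoters, 9 lower and 3 higher, with TNKS2 among the 12. It called 6 of 26 H3K27ac promoters, 5 lower and 1 higher. The share of all peaks called there is not given, so these counts are not read as a result about the list.

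Genes with the most similar pattern outside the interval were sought among 4485 genes with strong promoter peaks of both marks. Pearson's r with the mean pattern of the 8 promoters, over 12 libraries centred within each mark, was 0.968 for FUBP3 on chromosome 9, 0.968 for CDC42BPA on chromosome 1, 0.957 for COL5A1 on chromosome 9, 0.957 for XKR6 on chromosome 8 and 0.945 for DUSP10 on chromosome 1. The points of these correlations share the same libraries and their depth, and XKR6 (chr8:11056251-11059699) lies in the stretch from 10.0 to 16 Mb described above. Promoter H3K4me3 of these 5 genes was lower in BrM2 by log2 fold changes of -0.91, -0.56, -0.77, -0.92 and -0.47. They were picked for likeness to promoters low in BrM2, so lower BrM2 values follow from the search. Of the 20 genes most alike, 2 lay on chromosome 8 below 16 Mb, where 3 genes could be compared.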

How the data were processed

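H3K4me3 and H3K27ac ChIP-seq libraries of Par, LM2 and BrM2 were compared, with groups and replicate numbers taken from the sample titles. The study's methods describe 2 biological replicates per line, while the labels name no separate cultures. The 3 input samples, 1 per line, were not analysed here. The submitters' processing notes name Trimmomatic 0.32, Bowtie2 2.3.4.3, Picard 2.18.21 and MACS2 2.1.2. The authors aligned reads to hg19, merged the reads of a mark and called broad consensus peaks on them. What they deposited are raw counts of reads in each peak, 1 column per library and without normalization, from featureCounts 1.6.0 with reads extended by 150 bp at the 3′ end. Peaks were thus called on pooled libraries, and the name of the merged set in the labels also lists BoM, which was not analysed here. All count columns matched a sample, and 0 were left unmatched.

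Each peak was assigned to the nearest protein-coding gene start of GENCODE 44 in hg19 coordinates, and a promoter peak lay within 2 kb of it. CPM was computed from the counts and the total in all peaks. Log2 fold changes and tests came from DESeq2 1.42.0 (Wald test, Benjamini-Hochberg adjustment over all peaks of the mark, default filtering, threshold 0.05), as in the study's methods, in 1 fit of the 6 libraries of a mark with line as the term and 3 residual degrees of freedom. The script was tested on simulated counts. Peaks that DESeq2 left without an adjusted p did not enter the number tested. Alternatives were edgeR 4.0.16, a replicate block, other size factors, a minimum of 10 counts, another assignment of peaks to genes and leaving out each library. Edges were placed with peaks averaging 20 or more normalized counts, before 3 successive peaks with a log2 fold change above -0.5. The boundaries at 8.0, 8.8 and 16 Mb were chosen after the values along the arm were seen.

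The genes and lists were chosen with earlier results of these data known. Text names all 9 genes with their promoter peak and summed peaks, the 3 distal H3K27ac peaks highest in Par, the peaks beside each edge, related genes that passed a test (PEAK1 and TNKS2, as paralogs, were added after their values were seen), and the 5 genes of the most similar pattern in log2(CPM + 1) among those averaging 100 or more normalized counts in both marks. Marker lists were VIM, CD44, AXL, ZEB1, SNAI2 and MSN (mesenchymal), and ESR1, PGR, GATA3, FOXA1, ERBB3 and KRT18 (luminal).

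Replicate numbers are shared by the lines. Libraries of the same number deviated together from the mean of their line. For H3K4me3, over 13309 peaks, r was 0.843 between Par and LM2, 0.788 between Par and BrM2, and 0.825 for LM2 with BrM2. The same pairs gave 0.407, 0.607 and 0.48 for H3K27ac, over 20124 peaks. Same numbers were therefore taken as pairs in the ratios by replicate number and in the fits with the replicate block. This rests on the titles and these values alone. The main DESeq2 fit took no account of the pairs, so the deviation shared by a replicate number entered its standard errors.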

Additional observations from a re-analysis of the deposited data

Results flagged for a closer look

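In 6 cases every LM2 library lay above and every BrM2 library below both Par libraries in the summed CPM of a gene. The BrM2 part of this rule had chosen the genes. LM2 alone lay above Par without overlap at 19.5% of all genes in H3K4me3 and 21.8% in H3K27ac. For H3K4me3 the log2 ratio of LM2 to Par was 0.16 at AGPAT5 (BrM2 to Par -0.98), 0.48 at MFHAS1 (-2.31) and 0.52 at ERI1 (-1.07). For H3K27ac it was 0.27 at ANGPT2 (-0.79), 0.35 at AGPAT5 (-1.02) and 0.57 at MFHAS1 (-2.05). The difference between the lines was not tested, because BrM2 was used to choose the genes, and both ratios share the Par libraries. AGPAT5 and MFHAS1 appear in both marks.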

How the results depend on the processing

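Medians of BrM2 to Par and BrM2 to LM2 stayed negative in both marks under every alternative run. With at least 10 counts in every library, fewer peaks remain. The BrM2 to Par median then went from -1.44 to -1.19 (H3K4me3) and from -1.70 to -1.35 (H3K27ac). BrM2 to LM2 in H3K27ac went from -2.09 to -1.30, and LM2 to Par in H3K27ac from 0.085 to -0.056. This filter removes peaks for low BrM2 counts, so its BrM2 medians are no independent check. With a mean of at least 10 normalized counts instead, the BrM2 to Par medians were -1.59 (H3K4me3) and -2.09 (H3K27ac). Leaving out 1 library gave BrM2 to Par medians of -2.29 to -1.44 (H3K4me3, lowest without BrM2 replicate 2) and -2.36 to -1.71 (H3K27ac, lowest without BrM2 replicate 1), BrM2 to LM2 medians of -2.12 to -1.68 (H3K4me3), and LM2 to Par medians of -0.088 to 0.22 (H3K27ac, negative without Par replicate 2 or either LM2 replicate). The cause was not tested. The BrM2 to Par ratio of ANGPT2 H3K4me3, 0.17 with all libraries, ranged from -1.15 to 0.84. It was -0.83 without Par replicate 1 and -1.15 without BrM2 replicate 2, and these counts are too few to give it a direction. Of the 18 gene ratios, 5 others moved, all with their direction kept.

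Against 0 LM2 to Par calls, the replicate block gave 2 H3K4me3 peaks in DESeq2 and 4 in edgeR. For H3K27ac, edgeR gave 3 without and 7 with the block. The shares of all peaks called by edgeR with the block were 26.2% and 13.2%. The block changed no other call of the 9 genes in DESeq2. The left H3K27ac edge moved from position 6263314 to 410864 with peaks averaging at least 50 normalized counts. The right one moved from 11325032 to 11143118 with those peaks or at -0.7, and to 16275462 at -0.3. H3K4me3 edges did not move. BrM2 replicate 2 had the fewest H3K27ac counts, and 18 of the 62 H3K27ac peaks had no adjusted p for LM2 against Par. With 2 libraries per line, non-overlap is a weak criterion.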
